A study of Mus musculus with 9 samples.

Results

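The 40 endothelial genes described here are genes that mark or serve the cells lining blood vessels, chosen by name from a list of endothelial identity, angiogenic and activation genes. All 40 of 40 were found among the 20239 genes named on the arrays, each with 1 probe set, and 38 of them passed the filter on low values and were tested with 12597 genes in all. The tip-cell ligand gene Angpt2 and the selectin gene Selp did not pass it. By role they were 12 junction, adhesion and other surface genes, 5 transcription factors, 7 secreted, cytoplasmic or vasoactive genes, 11 angiogenic genes and 5 genes of activation and coagulation.

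Whole hearts of male C57BL/6 mice, 3 per group, were profiled on 9 Affymetrix arrays. Every mouse had received an adeno-associated virus at 8 weeks of age, in which a myosin light chain (MLC) promoter, active in heart muscle cells, drove either amino acids 1 to 201 of histone deacetylase 4 (HDAC4-NT) or luciferase as the control protein. The groups were transverse aortic constriction (TAC) with HDAC4-NT, TAC with luciferase, and sham surgery with luciferase. TAC narrows the aorta and puts the heart under pressure load, and sham surgery leaves the constriction out. Surgery came 4 weeks after the virus, and another 4 weeks passed before the hearts were collected. No sham group carried HDAC4-NT. The vector's promoter targets muscle cells, so the transgene was not directed to the endothelium itself. Values are log2 expression on the scale of the robust multi-array average (RMA), normalised so that all 9 arrays share 1 distribution.

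Endothelial cells form the inner wall of vessels and hold together through VE-cadherin and claudin 5. Vascular endothelial growth factor (VEGF) acts on them through the receptors encoded by Kdr and Flt1, angiopoietins act through TEK beside TIE1, and apelin and adrenomedullin act through receptors coupled to G proteins. In the heart most of these cells line capillaries that lie against the muscle fibres. When activated by cytokines or disturbed flow, they display the adhesion molecules VCAM1, ICAM1 and selectins, which bind leukocytes.

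The defining genes of endothelium were well measured in these hearts. Pecam1, Cdh5, Emcn and Eng lay above the filter level of 5.66 on all 9 arrays, at no less than 9.39 for any of them. The summed linear level of all 40 genes, on the log2 scale, ranged over 13.95 to 14.01 in TAC HDAC4-NT hearts, 13.91 to 14.03 in TAC luciferase hearts and 13.86 to 13.87 in sham hearts. In this sum every TAC heart lay above every sham heart. In the sum of 11 capillary markers, 2 of them members, every TAC heart lay below every sham heart. That sum ranged over 14.18 to 14.32, 14.11 to 14.22 and 14.33 to 14.45 in the same order of groups. A change in the number of endothelial cells and one in RNA per cell cannot be told apart in these bulk samples. Several members are also made by other cells, such as Vwf and Selp by platelets and their precursors, Ets1 and Fli1 by blood cells, and Vcam1 and Icam1 by stromal or immune cells.

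Hearts 2 and 3 of the TAC luciferase group stood apart from heart 1. Their correlation with each other over all tested genes was 0.9941, while heart 1 correlated at 0.9857 and 0.9867 with them and at 0.9914 to 0.9918 with the TAC HDAC4-NT hearts. In TAC luciferase heart 2, 27 of the 38 tested endothelial genes (71.1%) lay outside the range of the 6 hearts of the other groups. The number was 21 (55.3%) in heart 3 and 11 (28.9%) in heart 1. Over all tested genes the shares in these 3 hearts were 34.3%, 33.0% and 35.2%, in the same order. In TAC HDAC4-NT hearts 1, 2 and 3 the endothelial shares, at 47.4%, 34.2% and 42.1%, also exceeded those over all genes, at 25.4%, 22.6% and 24.3%. In sham hearts they were lower, at 26.3%, 31.6% and 26.3% against 56.6%, 53.3% and 52.9%. The median SD within a group over the 38 genes was 0.08 in TAC HDAC4-NT hearts, 0.20 in TAC luciferase hearts and 0.10 in sham hearts, against 0.06, 0.08 and 0.08 over all tested genes. Results that rest on these hearts are therefore given also without heart 1 and without hearts 2 and 3. The sample codes of the TAC luciferase group begin with 8 for heart 1 and with 9 for hearts 2 and 3. Codes begin with 12 in sham hearts and with 3 or 4 in TAC HDAC4-NT hearts, so no group shares a first number with another. The labels do not say what this number means, and its part cannot be told apart from that of the group. What sets hearts 2 and 3 apart was not tested.

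**Figure D1:**
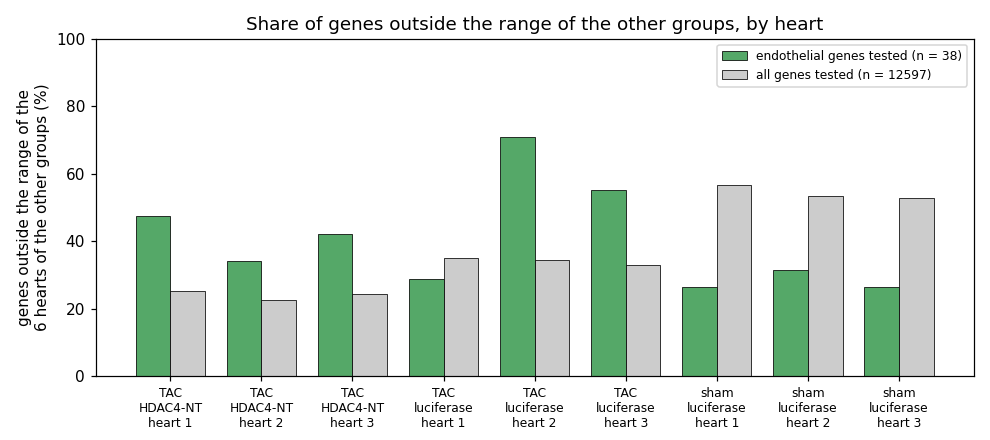
Bars show, for each heart, the percentage of the 38 tested endothelial genes (green) and of all 12597 tested genes (grey) whose value lies outside the range of the 6 hearts of the other groups. TAC luciferase hearts 2 and 3 reach 71.1% and 55.3% of the endothelial genes, against 28.9% in heart 1, while the shares over all genes lie between 33.0% and 35.2% in that group.

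Proximal promoters are printed for 5 members on which the comparisons turn, namely the VEGF receptor Kdr, the receptor Tie1, the adrenomedullin receptor subunit Calcrl, the adhesion molecule Icam1 and the junction gene Cldn5. They differ in direction, since in TAC luciferase against sham Kdr and Tie1 fell, Icam1 and Cldn5 rose, and Calcrl rose in TAC HDAC4-NT against sham. Each runs 5′ to 3′ over 300 bases, from 250 before to 50 after the gene start, from RefSeq on build GRCm38.p6. Capitals mark the core GGAA bound by ETS factors, the family of ERG, FLI1 and ETS1, and TTCC where the core lies on the other strand. Kdr is at chr5:75978406-75978705 on the minus strand, Tie1 at chr4:118489800-118490099 (minus), Calcrl at chr2:84425217-84425516 (minus), Icam1 at chr9:21015690-21015989 (plus) and Cldn5 at chr16:18776597-18776896 (plus).
Kdr: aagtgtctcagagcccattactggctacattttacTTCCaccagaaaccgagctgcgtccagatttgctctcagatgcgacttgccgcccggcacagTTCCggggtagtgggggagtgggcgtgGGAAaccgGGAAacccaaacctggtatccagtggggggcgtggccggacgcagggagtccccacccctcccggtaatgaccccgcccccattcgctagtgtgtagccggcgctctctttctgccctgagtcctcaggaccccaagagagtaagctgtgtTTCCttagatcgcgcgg
Tie1: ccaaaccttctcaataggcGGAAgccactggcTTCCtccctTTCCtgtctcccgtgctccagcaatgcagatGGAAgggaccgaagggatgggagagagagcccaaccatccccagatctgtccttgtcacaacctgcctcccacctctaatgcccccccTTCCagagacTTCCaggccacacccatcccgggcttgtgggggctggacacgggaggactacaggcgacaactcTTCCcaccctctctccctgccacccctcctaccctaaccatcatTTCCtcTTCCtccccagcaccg
Calcrl: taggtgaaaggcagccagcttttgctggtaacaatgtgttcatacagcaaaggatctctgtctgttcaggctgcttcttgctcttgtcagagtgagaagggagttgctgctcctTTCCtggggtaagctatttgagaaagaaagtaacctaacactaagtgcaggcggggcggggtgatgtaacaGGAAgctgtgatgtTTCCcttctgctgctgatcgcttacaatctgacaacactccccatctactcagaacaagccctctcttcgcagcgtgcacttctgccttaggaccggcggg
Icam1: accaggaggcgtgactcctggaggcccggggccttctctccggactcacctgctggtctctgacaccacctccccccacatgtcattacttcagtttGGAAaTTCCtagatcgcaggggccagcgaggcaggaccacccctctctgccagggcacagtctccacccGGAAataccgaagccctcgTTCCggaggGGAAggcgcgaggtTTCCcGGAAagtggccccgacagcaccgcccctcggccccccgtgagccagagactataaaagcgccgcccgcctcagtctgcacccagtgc
Cldn5: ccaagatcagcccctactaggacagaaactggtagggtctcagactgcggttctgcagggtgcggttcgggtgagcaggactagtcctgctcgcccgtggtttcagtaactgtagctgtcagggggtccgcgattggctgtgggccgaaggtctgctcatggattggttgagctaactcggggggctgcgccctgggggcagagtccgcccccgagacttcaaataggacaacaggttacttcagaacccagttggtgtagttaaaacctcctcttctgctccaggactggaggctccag
The core was present 9 times in the Tie1 window, 7 times in Icam1, 5 times in Kdr, 3 times in Calcrl and 0 times in Cldn5. Of the 40 members 19 matched the promoter table, with 23 promoters among them, and 22 of these 23 (95.65%) held at least 1 core on either strand, against 95.98% of all 32851 promoters. The median number of cores was 4 in the members' promoters and 3 in all promoters. The longer form CCGGAA, which contains the core, was in 8.70% of the members' promoters and 14.9% of all. The SOX-type motif ATTGTT was in 17.4% and 10.7%, the FOX-type motif TGTTTA in 4.35% and 13.4%, and a degenerate NF-kB motif in 17.4% and 8.46%, all searched on both strands. These matches describe letters in the window only.

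In TAC luciferase hearts the endothelial genes moved in both directions relative to sham hearts. The leukocyte adhesion molecules Vcam1 and Icam1 rose 1.49-fold and 1.51-fold, the phosphatase Ptprb 1.41-fold, the tight junction gene Cldn5 1.56-fold, and Cdh5 and the transcription factor Sox17 also rose. The VEGF receptor Kdr was 1.61-fold lower and Tie1 1.16-fold lower. With limma over all genes at a Benjamini-Hochberg adjusted p under 0.05, 6 of 38 tested members rose and 2 fell. This fit over all hearts is called the main fit, and results are from it unless another fit is named. Of all tested genes 11.2% rose and 14.9% fell (26.1% in either direction). The members' median log2 fold change was 0.10, against -0.01 over all tested genes. Groups did not overlap for 8 of the 38, against 37.4% of all tested genes.

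In TAC luciferase against sham without TAC luciferase heart 1, 12 of 38 rose and 5 fell, with 25.6% of all genes called. Heart 1 was singled out because it differed from hearts 2 and 3 in these data, and leaving it out tends to narrow the spread. The added calls are therefore no separate support for a difference. Gpihbp1, S1pr1, Esam, Rasip1, Notch1 and Sele joined the higher genes, and Tek, Aplnr and Efnb2 the lower ones. Without hearts 2 and 3 of that group, a setting chosen after seeing the data, Ptprb, Vcam1 and Icam1 were called higher and 0 members lower, with 15.3% of all genes called. Of the 17 members called without heart 1, Gpihbp1, Rasip1, Notch1 and Aplnr then had the opposite sign, at -0.18, -0.02, -0.12 and 0.37. That fit assumes the lone heart to vary like those of the other groups.

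Between TAC HDAC4-NT and TAC luciferase hearts, none of the 38 tested endothelial genes passed the threshold. The largest differences were in Aplnr, the apelin receptor, 3.25-fold higher in TAC HDAC4-NT hearts on average, and in Cldn5, 1.02 lower on the log2 scale, both with wide errors from the spread among TAC luciferase hearts. With limma 0 of 38 were called, against 0.254% of all tested genes (32 genes, with 0.143% higher and 0.111% lower), and the lowest adjusted p among members was 0.0568 for Tie1. At an unadjusted p under 0.05, 11 members were higher and 9 lower, 20 of 38 in all, against 14.3% of all tested genes (1807). Groups did not overlap for 18 of the 38, against 20.4% of all tested genes. The members' median log2 fold change was -0.00, and the median over all tested genes was 0.00.

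Leaving out TAC luciferase heart 1, the one that correlated most with HDAC4-NT hearts, gave 7 higher and 8 lower members, against 5.53% of all genes called. The higher genes were Ets1, Calcrl, Kdr, Tek, Tie1, Aplnr and Efnb2, and the lower ones Cldn5, Esam, Gpihbp1, S1pr1, Sox17, Rasip1, Flt1 and Notch1. Leaving out the heart nearest the other group tends to widen the difference and narrow the spread. These calls, here and by gene below, are therefore no separate support for a difference. Without TAC luciferase heart 2 no member was called, with 0.0318% of all genes called. Without heart 3 of that group 1 member was called, Vcam1 at -0.45 (adjusted p = 0.0358, limma), with 0.0953% of all genes called. Without hearts 2 and 3 both, 0 members were called, against 0.0794% of all genes. Of the members called without heart 1, Esam and Rasip1 then had the opposite sign. Some members not called without heart 1, such as Robo4 and Nos3, also changed sign. Weighting the arrays by their quality in limma weights the 3 hearts of the group unequally. It gave 9 higher and 9 lower members, with 6.57% of all genes called. Aplnr, at 1.70 in the main fit, moved to 2.08 with these weights and to 2.28 without heart 1. Calls made with weights, here and by gene below, are therefore also no separate support for a difference.

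Relative to sham hearts, TAC HDAC4-NT hearts had higher levels of the adrenomedullin receptor pair Calcrl and Ramp2, of the junction gene Cdh5, of Ptprb, of the transcription factor Erg and of the matrix gene Mmrn2. Calcrl had the largest change among the called genes, 1.61-fold. The VEGF receptor Flt1 was 1.21-fold lower and the peptide gene Apln 1.23-fold lower. In all, 6 of 38 rose and 2 fell, against 10.5% and 12.3% of all tested genes (22.8% in either direction). The members' median log2 fold change was 0.08, against -0.01 over all genes. Groups did not overlap for 15 of the 38, against 39.7% of all tested genes. This comparison combines TAC and HDAC4-NT, which cannot be told apart in it, and it shares its sham hearts with the comparison of TAC luciferase against sham. Without TAC luciferase heart 1, 8 rose and 2 fell, with 25.1% of all genes called, and without hearts 2 and 3 of that group 10 rose and 3 fell, with 24.3% called, since those hearts enter this comparison through the shared estimate of spread.

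**Figure D2:**
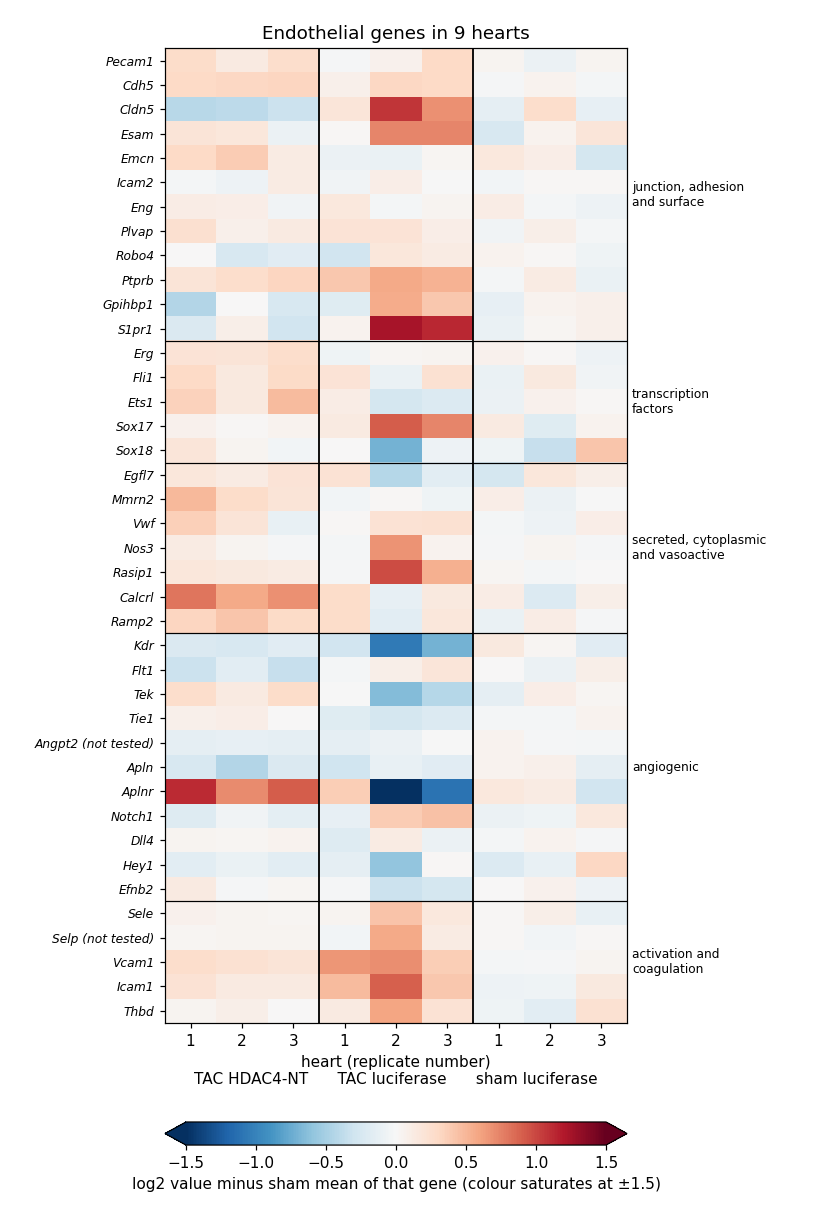
Colours show each of the 40 genes in each of the 9 hearts as log2 value minus the gene's mean over the sham hearts, with colour saturating at 1.5 either way, genes in rows by role and hearts in columns from TAC HDAC4-NT through TAC luciferase to sham. The deepest blue is Aplnr in TAC luciferase hearts 2 and 3 (5.92 and 6.43) and the deepest red S1pr1 in the same hearts (9.81 and 9.70).

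Among the 12 junction and surface genes, 3 rose and 0 fell in TAC luciferase against sham, 2 rose and 0 fell in TAC HDAC4-NT against sham, and 0 passed the threshold in TAC HDAC4-NT against TAC luciferase. Of all tested genes 26.1%, 22.8% and 0.254% were called in these comparisons, in the same order. The same shares stand beside the counts of the other roles below. Cdh5 encodes VE-cadherin, the main adhesion protein of the adherens junction. It was 10.85, 10.86 and 10.87 in TAC HDAC4-NT hearts, 10.63, 10.86 and 10.85 in TAC luciferase hearts and 10.53, 10.60 and 10.52 in sham hearts. Every TAC heart lay above every sham heart, and TAC luciferase heart 1 was the lowest of the TAC hearts. The log2 fold change was 0.31 (SE 0.07, adjusted p = 0.00829, limma) for TAC HDAC4-NT against sham and 0.23 (SE 0.07, adjusted p = 0.0295) for TAC luciferase against sham. The second call was lost without sham heart 1 or 3, or without TAC luciferase heart 2 or 3, at adjusted p between 0.0795 and 0.102. Without TAC luciferase hearts 2 and 3 both it was 0.08 (adjusted p = 0.507). The first held without any one heart.

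Ptprb encodes the vascular endothelial phosphatase that acts on TEK and on VE-cadherin complexes. It measured 9.75, 9.82 and 9.88 in TAC HDAC4-NT hearts, 9.96, 10.13 and 10.08 in TAC luciferase hearts and 9.53, 9.68 and 9.46 in sham hearts. The 3 groups were separate, with TAC luciferase highest and TAC HDAC4-NT between. Its log2 fold change was 0.50 (SE 0.07, adjusted p = 0.00106, limma) in TAC luciferase against sham and 0.26 (SE 0.07, adjusted p = 0.0284) in TAC HDAC4-NT against sham. The difference between both TAC groups, at -0.24 (adjusted p = 0.171), did not pass. The call in TAC HDAC4-NT against sham was lost without sham heart 1 or 3, or without TAC HDAC4-NT heart 2 or 3 (adjusted p between 0.0738 and 0.102), while that in TAC luciferase against sham held without any one heart.

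Cldn5 encodes claudin 5, the tight junction protein of endothelium. Its values were 7.18, 7.21 and 7.29 in TAC HDAC4-NT hearts, 7.78, 8.68 and 8.29 in TAC luciferase hearts and 7.47, 7.87 and 7.48 in sham hearts. All TAC HDAC4-NT hearts lay below all other hearts, and TAC luciferase heart 1 lay within the sham range. TAC HDAC4-NT against sham gave -0.38, which did not pass in the main fit. It passed with only the 6 arrays compared, which leaves the TAC luciferase hearts out (adjusted p = 0.0384, limma). The log2 fold change in TAC luciferase against sham was 0.65 (SE 0.20, adjusted p = 0.0393, limma). That call was lost without sham heart 1 or 3, TAC luciferase heart 2 or 3, or any 1 of the TAC HDAC4-NT hearts, at adjusted p between 0.0564 and 0.122. In TAC HDAC4-NT against TAC luciferase it was -1.02 (SE 0.20, adjusted p = 0.0611), -1.26 without TAC luciferase heart 1 (adjusted p = 0.00207) and -0.55 without hearts 2 and 3 (adjusted p = 0.306). Without those hearts TAC luciferase against sham was 0.18 (adjusted p = 0.506).

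S1pr1 encodes a receptor for sphingosine-1-phosphate that stabilises vessel walls. It was 8.36, 8.66 and 8.29 in TAC HDAC4-NT hearts, 8.63, 9.81 and 9.70 in TAC luciferase hearts and 8.47, 8.61 and 8.64 in sham hearts. TAC luciferase hearts 2 and 3 lay far above the other 7 hearts, whose range held heart 1. In the main fit S1pr1 passed in no comparison. It was at 0.81 (SE 0.27, adjusted p = 0.0516, limma) for TAC luciferase against sham and -0.94 (SE 0.27, adjusted p = 0.147) for TAC HDAC4-NT against TAC luciferase. Without heart 1 these were 1.18 (adjusted p = 0.000151) and -1.32 (adjusted p = 0.000449). Without hearts 2 and 3 they were 0.05 and -0.19. Array weights moved both towards the values without heart 1. With them both passed, at 0.997 (adjusted p = 0.0138, limma) and -1.16 (adjusted p = 0.0143). TAC luciferase against sham also passed over all hearts with a stricter filter on low values (adjusted p = 0.0333) and with the replicate number as a block (adjusted p = 0.0335).

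Esam and Gpihbp1 had the same arrangement. Esam encodes an adhesion molecule of endothelial tight junctions and measured 9.33, 9.32 and 9.05 in TAC HDAC4-NT hearts, 9.16, 9.88 and 9.87 in TAC luciferase hearts and 8.91, 9.19 and 9.33 in sham hearts. Gpihbp1 encodes the capillary protein that holds lipoprotein lipase and measured 8.69, 9.13 and 8.89, then 8.94, 9.69 and 9.54, and then 9.004, 9.18 and 9.20 in those groups. In both genes TAC luciferase hearts 2 and 3 were the highest of all 9, and the 3 groups overlapped. Neither passed in the main fit. With array weights Esam passed in TAC luciferase against sham (0.60, adjusted p = 0.0341, limma) and Gpihbp1 in TAC HDAC4-NT against TAC luciferase (-0.66, adjusted p = 0.0353). Without TAC luciferase heart 1 the log2 fold change of TAC HDAC4-NT against TAC luciferase was -0.64 for Esam (adjusted p = 0.0219, limma) and -0.71 for Gpihbp1 (adjusted p = 0.0126). Without hearts 2 and 3 it was 0.07 for Esam, the opposite sign (adjusted p = 0.930), and -0.04 for Gpihbp1 (adjusted p = 0.960).

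The other 6 surface genes passed the threshold in none of the 3 comparisons in the main fit. Emcn, which encodes the sialomucin endomucin, was 10.69, 10.76 and 10.51 in TAC HDAC4-NT hearts, 10.29, 10.29 and 10.41 in TAC luciferase hearts and 10.55, 10.48 and 10.13 in sham hearts, so that both TAC groups were separate but sham hearts spanned the gap. Pecam1, the adhesion molecule CD31, ranged from 9.61 to 9.75 in TAC HDAC4-NT hearts, 9.46 to 9.77 in TAC luciferase hearts and 9.39 to 9.52 in sham hearts. Its difference of 0.22 in TAC HDAC4-NT against sham passed with only the 6 arrays compared (adjusted p = 0.0380, limma) and without TAC luciferase heart 3 (adjusted p = 0.0359). For Icam2, Eng, Plvap and Robo4, the log2 fold changes in the 3 comparisons lay between -0.14 and 0.17.

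Among the 5 transcription factors, 1 rose and 0 fell in each comparison with sham, and 0 were called between both TAC groups. Sox17 marks arterial endothelium. It was 6.38, 6.34 and 6.37 in TAC HDAC4-NT hearts, 6.46, 7.22 and 7.05 in TAC luciferase hearts and 6.45, 6.14 and 6.36 in sham hearts. TAC luciferase heart 1 lay close to the other groups, and hearts 2 and 3 lay above all others. TAC luciferase against sham gave 0.59 (SE 0.17, adjusted p = 0.0305, limma), a call lost without any 1 sham heart or without TAC luciferase heart 2 or 3, at adjusted p between 0.0502 and 0.0975, and at 0.14 without hearts 2 and 3 both (adjusted p = 0.489). TAC HDAC4-NT against TAC luciferase was -0.54 (adjusted p = 0.187), -0.77 without heart 1 (adjusted p = 0.00294) and -0.09 without hearts 2 and 3 (adjusted p = 0.856).

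Erg, the ETS factor that maintains endothelial identity, was 7.30, 7.28 and 7.36 in TAC HDAC4-NT hearts, 7.03, 7.13 and 7.13 in TAC luciferase hearts and 7.15, 7.11 and 7.01 in sham hearts. The TAC HDAC4-NT hearts lay above all others, and the other groups overlapped. Against sham it was 0.22 higher (SE 0.05, adjusted p = 0.017, limma), a call lost without sham heart 3 or TAC HDAC4-NT heart 1 or 3 (adjusted p between 0.0520 and 0.0681). Against TAC luciferase the difference was also 0.22, with adjusted p = 0.107.

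Ets1, another ETS factor, measured 8.21, 8.01 and 8.34 in TAC HDAC4-NT hearts, 7.98, 7.60 and 7.66 in TAC luciferase hearts and 7.78, 7.93 and 7.88 in sham hearts. Its highest 3 values were those of the TAC HDAC4-NT hearts. It did not pass in any comparison in the main fit. TAC HDAC4-NT against sham passed over all hearts with array weights (0.33, adjusted p = 0.0390, limma) and with cyclic loess scaling (0.35, adjusted p = 0.0481). It also passed without TAC luciferase heart 1 (0.32, adjusted p = 0.0212). With array weights TAC HDAC4-NT against TAC luciferase passed too (0.51, adjusted p = 0.0173). Without TAC luciferase heart 1, TAC HDAC4-NT against TAC luciferase gave 0.56 (adjusted p = 0.0113, limma), and without hearts 2 and 3 it gave 0.21 (adjusted p = 0.651). Fli1, of the same family, and Sox18, a regulator of vessel development, passed in no comparison, and Sox18 ranged over 8.55 to 9.26 in TAC luciferase hearts and 8.91 to 9.67 in sham hearts.

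Among the 7 secreted, cytoplasmic and vasoactive genes, 3 rose and 0 fell in TAC HDAC4-NT against sham, and 0 were called in the other comparisons. Calcrl encodes the receptor that, with RAMP2, binds adrenomedullin, a peptide that dilates vessels. It was 9.19, 8.95 and 9.07 in TAC HDAC4-NT hearts, 8.66, 8.26 and 8.52 in TAC luciferase hearts and 8.49, 8.18 and 8.48 in sham hearts. Every TAC HDAC4-NT heart lay above every other heart, while the luciferase groups overlapped. TAC HDAC4-NT was 0.69 above sham (SE 0.12, adjusted p = 0.003, limma), a call that held without any one heart. Against TAC luciferase it was 0.59 higher (SE 0.12, adjusted p = 0.0637), 0.67 without TAC luciferase heart 1 (adjusted p = 0.014) and 0.41 without hearts 2 and 3 (adjusted p = 0.387).

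Ramp2, which encodes the partner of that receptor, was 8.12, 8.21 and 8.08 in TAC HDAC4-NT hearts, 8.07, 7.64 and 7.97 in TAC luciferase hearts and 7.70, 7.91 and 7.78 in sham hearts. TAC HDAC4-NT hearts were again the highest 3. Their log2 fold change against sham was 0.34 (SE 0.11, adjusted p = 0.0434, limma). The call was lost without sham heart 1 or 3, any 1 of the TAC HDAC4-NT hearts, or TAC luciferase heart 3, at adjusted p between 0.0560 and 0.132.

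Mmrn2 encodes a glycoprotein that endothelium lays into the vessel matrix. It was 8.10, 7.89 and 7.81 in TAC HDAC4-NT hearts, 7.58, 7.64 and 7.55 in TAC luciferase hearts and 7.71, 7.53 and 7.61 in sham hearts. The TAC HDAC4-NT hearts lay above all 6 luciferase hearts. Against sham the log2 fold change was 0.32 (SE 0.08, adjusted p = 0.0184, limma), lost without sham heart 2 or 3 or TAC HDAC4-NT heart 1 (adjusted p between 0.0532 and 0.0610), and against TAC luciferase it was 0.35 (SE 0.08, adjusted p = 0.0882).

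Rasip1, whose protein is needed for vessel lumens to form, measured 7.43, 7.41 and 7.39 in TAC HDAC4-NT hearts, 7.24, 8.24 and 7.79 in TAC luciferase hearts and 7.29, 7.23 and 7.26 in sham hearts. TAC luciferase hearts 2 and 3 were the highest, and heart 1 was within the sham range. Without heart 1 TAC HDAC4-NT against TAC luciferase was -0.61 (adjusted p = 0.0158, limma), and with all hearts -0.35 (adjusted p = 0.467). Without hearts 2 and 3 the sign turned, to 0.17 (adjusted p = 0.474). Nos3, the endothelial nitric oxide synthase gene, was 7.93 in TAC luciferase heart 2 and between 7.23 and 7.38 in the other 8 hearts. Neither Nos3, nor the secreted factor gene Egfl7, nor Vwf, which encodes von Willebrand factor, passed in any comparison.

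**Figure D3:**
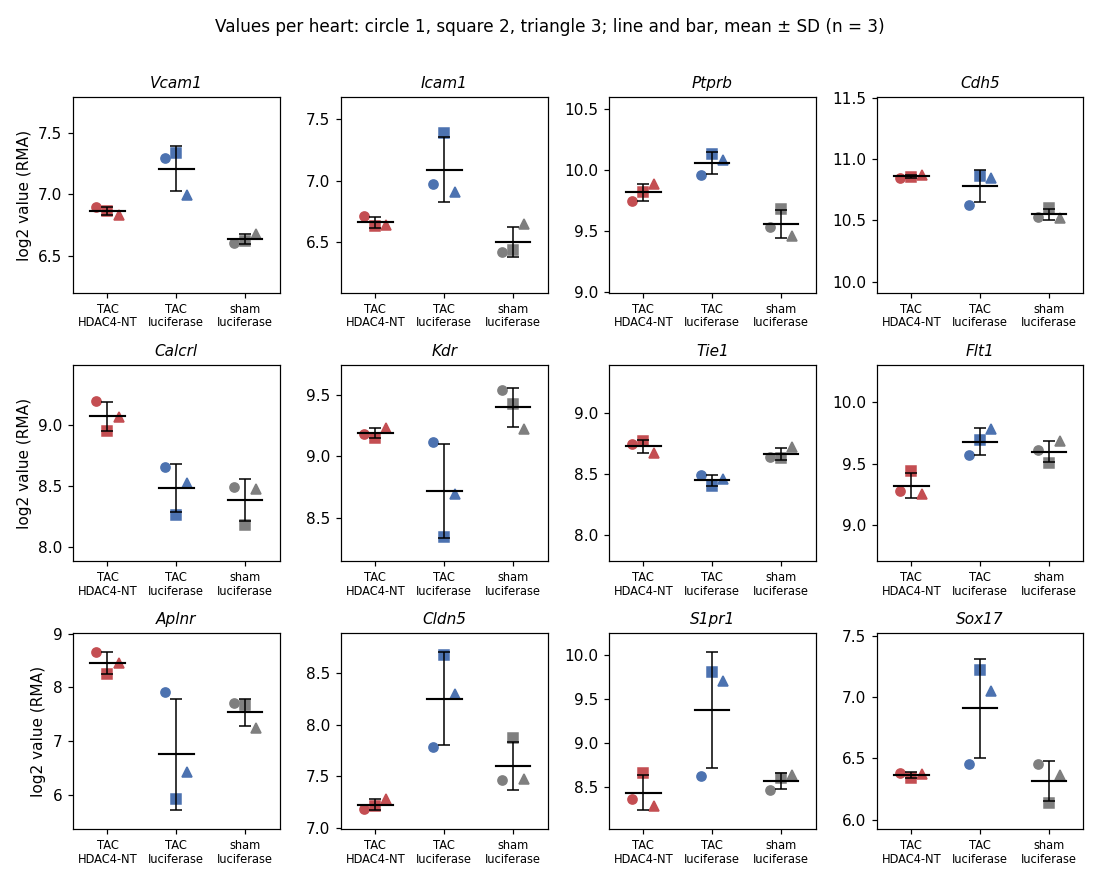
Points show the log2 value of 12 endothelial genes in each heart (circle, square and triangle for hearts 1, 2 and 3), with lines at the group mean and bars of 1 SD (n = 3), and axes that differ between genes and do not start at 0. Vcam1, Icam1 and Ptprb are highest in TAC luciferase hearts, Calcrl is highest in TAC HDAC4-NT hearts, and for Aplnr, Cldn5, S1pr1 and Sox17 TAC luciferase heart 1 lies apart from hearts 2 and 3.

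Of the 10 tested angiogenic genes, 0 rose and 2 fell in each comparison with sham, and 0 were called between both TAC groups. Kdr encodes the main signalling receptor for VEGF. It was 9.18, 9.15 and 9.23 in TAC HDAC4-NT hearts, 9.11, 8.34 and 8.69 in TAC luciferase hearts and 9.54, 9.43 and 9.23 in sham hearts. All TAC luciferase hearts lay below all sham and TAC HDAC4-NT hearts, heart 1 only narrowly. In TAC luciferase against sham it fell by 0.68 on the log2 scale (SE 0.16, adjusted p = 0.0144, limma). That call was lost without sham heart 1 (adjusted p = 0.0565), and without TAC luciferase hearts 2 and 3 the change was -0.28 (adjusted p = 0.149). Against TAC luciferase, TAC HDAC4-NT hearts were 0.47 higher (adjusted p = 0.234), 0.67 higher without heart 1 (adjusted p = 0.0123) and 0.08 higher without hearts 2 and 3 (adjusted p = 0.887).

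Flt1 encodes the VEGF receptor that, also as a soluble form, holds VEGF away from KDR. It was 9.27, 9.44 and 9.25 in TAC HDAC4-NT hearts, 9.57, 9.69 and 9.78 in TAC luciferase hearts and 9.61, 9.51 and 9.68 in sham hearts. The TAC HDAC4-NT hearts were the lowest 3 and the luciferase groups overlapped. Against sham the log2 fold change was -0.28 (SE 0.08, adjusted p = 0.0275, limma), lost without sham heart 1 or 3 or TAC HDAC4-NT heart 1 or 3 (adjusted p between 0.0725 and 0.0991). Against TAC luciferase it was -0.36 (SE 0.08, adjusted p = 0.076), -0.42 without heart 1 (adjusted p = 0.0181) and -0.25 without hearts 2 and 3 (adjusted p = 0.491).

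Tek encodes the receptor of the angiopoietins, also called TIE2. It was 8.72, 8.60 and 8.74 in TAC HDAC4-NT hearts, 8.45, 7.82 and 8.04 in TAC luciferase hearts and 8.33, 8.56 and 8.50 in sham hearts. TAC HDAC4-NT hearts lay above all others, and TAC luciferase hearts 2 and 3 below all others. No comparison passed in the main fit, but TAC luciferase against sham did with array weights (-0.46, adjusted p = 0.0295, limma). TAC HDAC4-NT against TAC luciferase gave 0.58 (adjusted p = 0.098) in the main fit and 0.70 with array weights (adjusted p = 0.0121). Without heart 1 this was 0.76 (adjusted p = 0.00295), and without hearts 2 and 3 it was 0.23 (adjusted p = 0.536).

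Tie1, the receptor that pairs with TEK, was 8.75, 8.77 and 8.67 in TAC HDAC4-NT hearts, 8.49, 8.40 and 8.46 in TAC luciferase hearts and 8.64, 8.63 and 8.72 in sham hearts. Its 3 TAC luciferase hearts were close together and below all other hearts. It fell by 0.22 on the log2 scale in TAC luciferase against sham (SE 0.05, adjusted p = 0.0129, limma), with an adjusted p of 0.0504 without TAC luciferase heart 2 and 0.173 without hearts 2 and 3 (-0.18). TAC HDAC4-NT against TAC luciferase was 0.28 (SE 0.05, adjusted p = 0.0568), 0.30 without heart 1 (adjusted p = 0.0212) and 0.24 without hearts 2 and 3 (adjusted p = 0.361).

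Aplnr encodes the apelin receptor. It was 8.66, 8.25 and 8.45 in TAC HDAC4-NT hearts, 7.91, 5.92 and 6.43 in TAC luciferase hearts and 7.70, 7.66 and 7.25 in sham hearts. TAC luciferase hearts 2 and 3 lay below all others, whereas heart 1 lay just above the sham hearts and below the TAC HDAC4-NT hearts. TAC HDAC4-NT against TAC luciferase gave 1.70 (SE 0.41, adjusted p = 0.102, limma), 2.28 without heart 1 (adjusted p = 0.000449) and 0.54 without hearts 2 and 3 (adjusted p = 0.421). TAC luciferase against sham was -0.79 (adjusted p = 0.204), -1.37 without heart 1 (adjusted p = 0.00106) and, with the sign turned, 0.37 without hearts 2 and 3 (adjusted p = 0.265). TAC HDAC4-NT was 0.91 above sham (SE 0.41, adjusted p = 0.157, limma), and these groups did not overlap. The adjusted p was 0.0042 without TAC luciferase heart 1, a heart that bears on this comparison only through the shared estimate of spread. With only the 6 arrays compared, which leaves all TAC luciferase hearts out, the adjusted p was 0.00295.

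Apln, the gene of the peptide itself, measured 6.88, 6.68 and 6.91 in TAC HDAC4-NT hearts, 6.82, 7.01 and 6.95 in TAC luciferase hearts and 7.18, 7.20 and 6.99 in sham hearts. All 3 TAC HDAC4-NT hearts lay below all sham hearts, while TAC luciferase and sham hearts overlapped. TAC HDAC4-NT against sham gave -0.30 (SE 0.08, adjusted p = 0.0323, limma). That call was lost without sham heart 1 or 2 or TAC HDAC4-NT heart 1 or 2, at adjusted p between 0.0592 and 0.107. TAC luciferase against sham gave -0.19 (adjusted p = 0.128).

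The Notch and ephrin members did not pass in the main fit. With array weights Notch1 and Efnb2 passed in TAC HDAC4-NT against TAC luciferase, at -0.46 (adjusted p = 0.0314, limma) and 0.32 (adjusted p = 0.0284). Notch1, a receptor through which neighbouring endothelial cells restrain sprouting, was 7.68, 7.82 and 7.72 in TAC HDAC4-NT hearts, 7.75, 8.25 and 8.31 in TAC luciferase hearts and 7.77, 7.80 and 8.02 in sham hearts. Efnb2, an arterial ephrin, was 6.85, 6.70 and 6.74, then 6.69, 6.39 and 6.45, and then 6.72, 6.78 and 6.64 in those groups. TAC luciferase hearts 2 and 3 were the highest for Notch1 and the lowest for Efnb2. Without heart 1, TAC HDAC4-NT against TAC luciferase was -0.54 for Notch1 (adjusted p = 0.00793, limma) and 0.34 for Efnb2 (adjusted p = 0.0218). Without hearts 2 and 3 these were -0.01 (adjusted p = 0.990) and 0.07 (adjusted p = 0.846). The Notch ligand gene Dll4 and the Notch target Hey1 passed in no comparison. Angpt2, which encodes an antagonist of TEK signalling, lay above the filter level on 1 of 9 arrays, between 5.53 and 5.71, and was not tested.

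Among the 4 tested genes of activation and coagulation, 2 rose and 0 fell in TAC luciferase against sham, and 0 were called in the other comparisons. Vcam1, which binds integrins of leukocytes, was 6.90, 6.86 and 6.83 in TAC HDAC4-NT hearts, 7.30, 7.34 and 6.998 in TAC luciferase hearts and 6.60, 6.62 and 6.68 in sham hearts. The 3 groups were separate, with TAC HDAC4-NT in the middle. The log2 fold change was 0.58 (SE 0.08, adjusted p = 0.00108, limma) for TAC luciferase against sham and 0.23 (adjusted p = 0.0782) for TAC HDAC4-NT against sham. With only the 6 arrays compared, TAC HDAC4-NT against sham passed (adjusted p = 0.0132). TAC HDAC4-NT against TAC luciferase gave -0.35 (SE 0.08, adjusted p = 0.098).

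Icam1, another ligand of leukocyte integrins, was 6.71, 6.63 and 6.64 in TAC HDAC4-NT hearts, 6.97, 7.39 and 6.91 in TAC luciferase hearts and 6.42, 6.43 and 6.64 in sham hearts. TAC luciferase hearts were the highest 3, and the ranges of TAC HDAC4-NT and sham hearts overlapped. TAC luciferase against sham gave 0.59 (SE 0.12, adjusted p = 0.00624, limma), and TAC HDAC4-NT against TAC luciferase -0.43 (SE 0.12, adjusted p = 0.141). The calls of Vcam1 and Icam1 in TAC luciferase against sham held without any one heart and without TAC luciferase hearts 2 and 3 both.

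The selectins sat near the floor of the array. Sele lay above the filter level on 8 of 9 arrays and reached 6.09 in TAC luciferase heart 2, against 5.56 to 5.82 in the other 8 hearts. Selp, not tested, was 5.99 in the same heart and between 5.37 and 5.54 in the others. Thbd, whose product thrombomodulin restrains clotting, was 7.94, 7.98 and 7.90 in TAC HDAC4-NT hearts, 8.03, 8.48 and 8.11 in TAC luciferase hearts and 7.83, 7.73 and 8.12 in sham hearts. Both TAC groups were separate for Thbd, and it passed in no comparison.

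**Figure D4:**
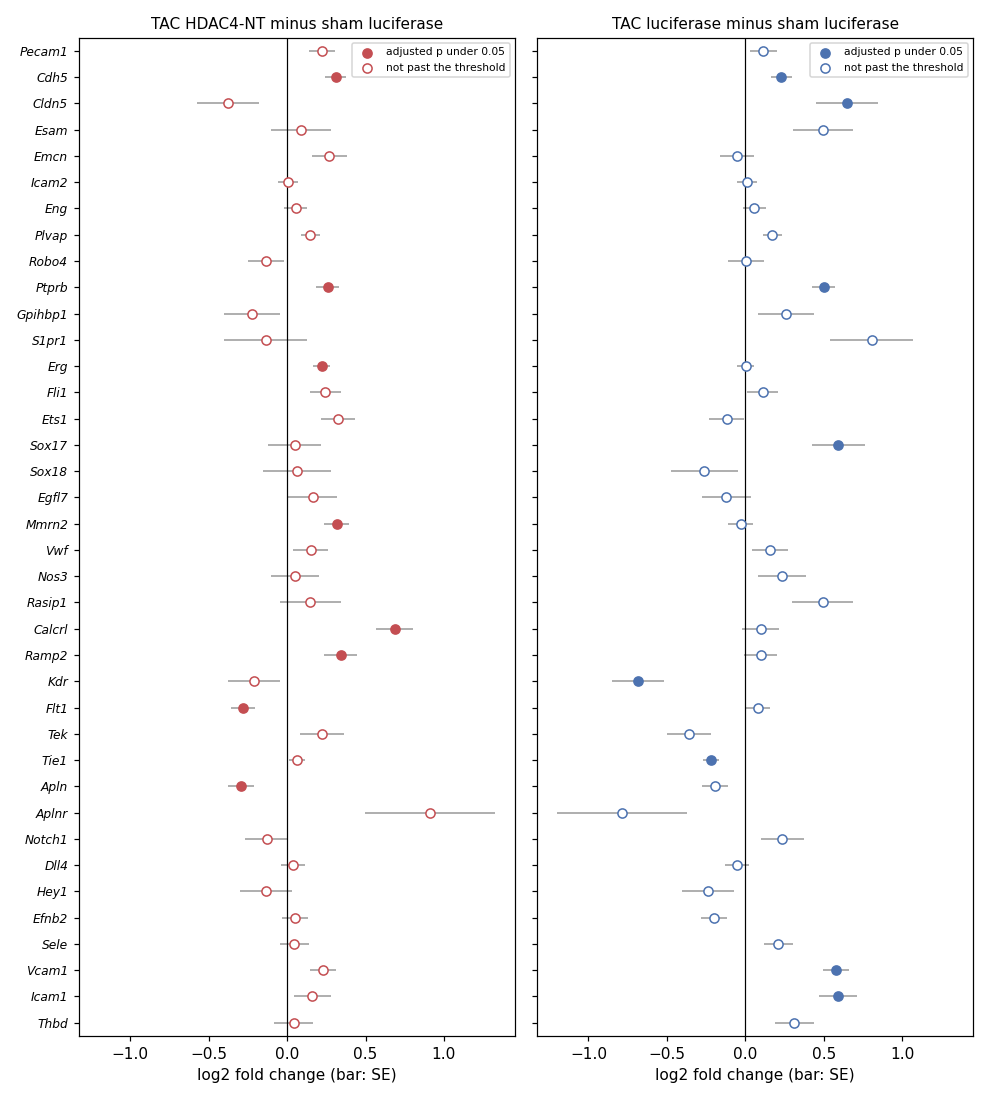
Points show the log2 fold change of the 38 tested endothelial genes against sham hearts, with bars of 1 SE, for TAC HDAC4-NT (left) and TAC luciferase (right), filled where the adjusted p is under 0.05. Each panel has 8 filled points, 6 above and 2 below 0, and both panels share the sham hearts.

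**Figure D5:**
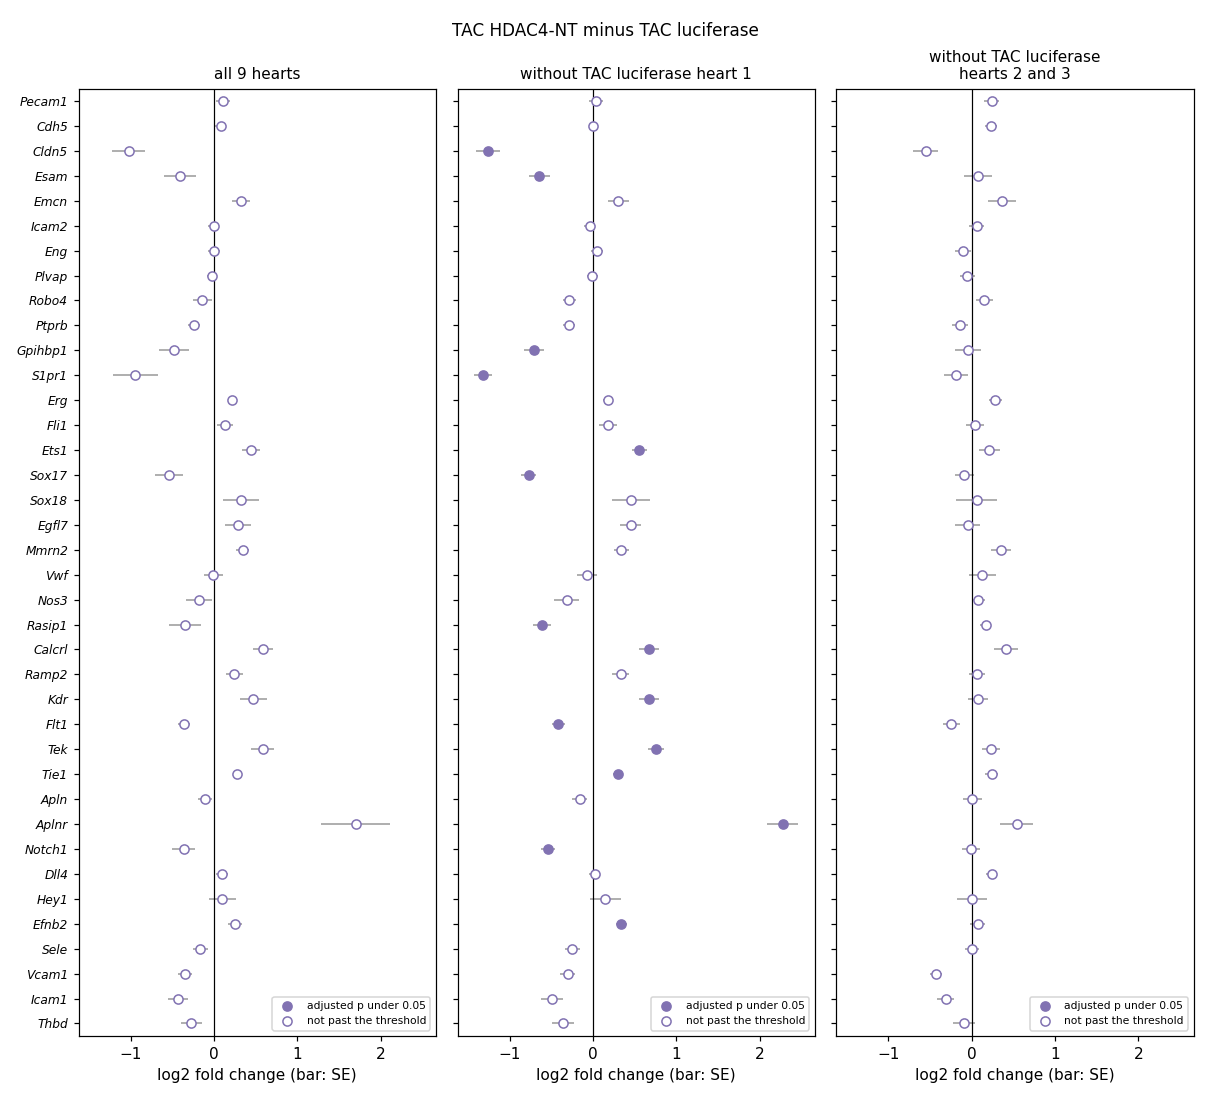
Points show the log2 fold change of TAC HDAC4-NT minus TAC luciferase hearts for the 38 tested genes with bars of 1 SE, filled where the adjusted p is under 0.05, with all 9 hearts (left), without TAC luciferase heart 1 (middle) and without TAC luciferase hearts 2 and 3 (right). The panels have 0, 15 and 0 filled points, and Aplnr moves between 1.70, 2.28 and 0.54.

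Wider lists of the same pathways, which include members, were counted in the main fit. Of all tested genes 11.2% rose and 14.9% fell in TAC luciferase against sham, and 10.5% rose and 12.3% fell in TAC HDAC4-NT against sham. Between both TAC groups 0.143% were higher and 0.111% lower. The lists are short, and none was tested as a set against these shares. Of 11 tested VEGF genes, 1 rose and 3 fell in TAC luciferase against sham, and 0 rose and 4 fell in TAC HDAC4-NT against sham. The ligand gene Vegfb fell by 0.24 and 0.21 on the log2 scale in TAC HDAC4-NT and TAC luciferase hearts against sham (adjusted p = 0.00972 and 0.0151, limma). Vegfa, the main ligand of KDR, was 10.30, 10.48 and 10.51 in TAC HDAC4-NT hearts, 10.76, 10.73 and 10.99 in TAC luciferase hearts and 10.64, 10.69 and 10.83 in sham hearts. The TAC HDAC4-NT hearts were the lowest 3, and in them Vegfa fell by 0.29 against sham (adjusted p = 0.0415). Between both TAC groups 0 of the 11 were called.

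Of 7 tested genes of angiopoietin and TIE signalling, 2 rose and 3 fell in TAC luciferase against sham, 2 rose and 2 fell in TAC HDAC4-NT against sham, and 0 were called between both TAC groups. Angpt1, the ligand that activates TEK, was 5.94, 5.76 and 5.95 in TAC HDAC4-NT hearts, 5.98, 5.92 and 6.06 in TAC luciferase hearts and 6.99, 6.59 and 6.49 in sham hearts. Its level was lower in every TAC heart than in every sham heart, by 0.81 in TAC HDAC4-NT hearts (adjusted p = 0.00132, limma) and 0.71 in TAC luciferase hearts (adjusted p = 0.00255). Svep1, an extracellular matrix gene listed here, had the opposite direction, at 2.16 (adjusted p = 5.5e-06) and 1.89 (adjusted p = 1.3e-05).

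Of 16 tested Notch and ephrin genes, 1 rose and 2 fell in TAC luciferase against sham, 4 rose and 1 fell in TAC HDAC4-NT against sham, and 1 rose and 0 fell in TAC HDAC4-NT against TAC luciferase. That 1 was the ephrin gene Efna1, at 7.46, 7.41 and 7.46 in TAC HDAC4-NT hearts, 6.92, 6.48 and 6.72 in TAC luciferase hearts and 7.34, 7.39 and 7.11 in sham hearts. TAC luciferase hearts lay below all others, with a log2 fold change of 0.74 for TAC HDAC4-NT against TAC luciferase (SE 0.11, adjusted p = 0.0458, limma). Of 8 tested apelin and adrenomedullin genes, 1 rose and 0 fell in TAC luciferase against sham, 2 rose and 1 fell in TAC HDAC4-NT against sham, and 0 were called between both TAC groups. The 1 was Ramp3, an alternative partner of the receptor encoded by Calcrl, which was 6.11, 6.06 and 6.15 in TAC HDAC4-NT hearts, 6.02, 7.16 and 6.69 in TAC luciferase hearts and 5.79, 5.76 and 6.04 in sham hearts. Its TAC luciferase hearts 2 and 3 again lay above all others.

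Of 10 tested genes of inflammatory activation, 4 rose in TAC luciferase against sham, 2 rose in TAC HDAC4-NT against sham, 0 fell in either, and 0 were called between both TAC groups. Besides Vcam1 and Icam1 these were the chemokine gene Cx3cl1 and Selplg, the selectin ligand of leukocytes. Of 12 tested genes of the shear and stress response, 5 rose and 2 fell in TAC luciferase against sham, 1 rose and 0 fell in TAC HDAC4-NT against sham, and 0 rose and 1 fell in TAC HDAC4-NT against TAC luciferase. The last was Klf4, a factor induced by laminar flow, at 7.16, 7.08 and 7.19 in TAC HDAC4-NT hearts, 7.59, 7.68 and 7.75 in TAC luciferase hearts and 7.05, 7.23 and 7.38 in sham hearts. TAC luciferase hearts, heart 1 included, lay above all others, and the log2 fold change of TAC HDAC4-NT against TAC luciferase was -0.53 (SE 0.08, adjusted p = 0.0458, limma). Apold1, an early response gene of endothelium, was 6.51, 6.41 and 6.75 in TAC HDAC4-NT hearts, 7.25, 9.68 and 8.90 in TAC luciferase hearts and 6.53, 6.66 and 6.66 in sham hearts, which set TAC luciferase hearts 2 and 3 far above the rest.

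Of 16 tested endothelial transcription factors, 2 rose and 1 fell in TAC luciferase against sham, 2 rose and 0 fell in TAC HDAC4-NT against sham, and 0 were called between both TAC groups. Of 6 tested proliferation genes, 5 rose in TAC luciferase against sham and 4 in TAC HDAC4-NT against sham, with 0 falling and 0 called between both TAC groups. Which cells these transcripts came from was not measured.

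Some markers of vessel types and of other cells moved as well. The capillary list includes the members Kdr and Gpihbp1, and the venous list includes Vcam1. The calls of Kdr and Vcam1 in TAC luciferase against sham are therefore counted again in these lists. For these and the remaining lists, the shares of all tested genes called were 22.8% in TAC HDAC4-NT against sham and 26.1% in TAC luciferase against sham. Of 10 tested capillary markers, 1 rose and 2 fell in TAC HDAC4-NT against sham, and 0 rose and 4 fell in TAC luciferase against sham. Cd36, the fatty acid transporter, and Car4 fell in TAC luciferase against sham, by 0.34 and 1.02, while in TAC HDAC4-NT against sham they were at -0.21 (adjusted p = 0.0629, limma) and -0.62 (adjusted p = 0.0698). Of 9 tested fibroblast markers, 5 rose in each comparison with sham, and their summed level was 13.67 to 13.68 in TAC HDAC4-NT hearts, 13.51 to 13.59 in TAC luciferase hearts and 12.79 to 12.91 in sham hearts. Of 10 tested macrophage and myeloid markers, 4 rose in TAC HDAC4-NT against sham and 3 in TAC luciferase against sham, with sums of 11.04 to 11.22, 11.03 to 11.42, and 10.72 to 10.75 in TAC HDAC4-NT, TAC luciferase and sham hearts. Fibroblasts and macrophages can also carry Vcam1 and Icam1, and their part in those changes was not tested. Atrial markers varied within groups, with sums of 8.23 to 9.83, 8.32 to 10.97, and 8.96 to 10.40 in the same order of groups and 0 of 4 called in any comparison. Of 10 cardiomyocyte markers 2 fell in TAC luciferase against sham and 1 in TAC HDAC4-NT against sham, with sums of 16.47 to 16.48, 16.44 to 16.47, and 16.49 to 16.56.

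The remaining lists are given as genes that rose and fell, first in TAC HDAC4-NT and then in TAC luciferase against sham. Lymphatic endothelial markers gave 1 and 2, then 2 and 1, of 6 tested. Arterial markers gave 2 and 0 in both comparisons, of 7. Venous markers gave 1 and 1, then 1 and 0, of 4, and endocardial markers the same numbers, of 4. Pericyte markers gave 3 and 1, then 1 and 1, of 8, and smooth muscle markers 1 and 1, then 1 and 0, of 6. Platelet, lymphocyte and erythroid markers, of which 4, 2 and 3 were tested, gave 0 throughout. Between both TAC groups 0 genes of any cell type list were called.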

How the data were processed

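Heart RNA was isolated with Trizol, labelled with biotin as cRNA and read on Affymetrix arrays, per the labels. The authors deposited log2 values, and the submitters' processing notes name RMA as the method. RMA compresses low values and understates changes of dim genes. The values give no depth. The median SE of a log2 fold change was 0.07.

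Of 21225 probe sets 20239 had 1 gene symbol in the platform annotation, all matched by gene ID to RefSeq (GRCm38.p6), and 986 were unlisted. Genes above the 40th percentile of all values on at least 3 of 9 arrays were tested (12597, with 7642 removed). Limma 3.58.1 in R 4.3.3 fitted 1 model over all 9 arrays (lmFit, contrasts.fit and eBayes; degrees of freedom 6 residual, 3.23 prior), with Benjamini-Hochberg adjustment over all tested genes. Groups came from the sample labels. The labels give no extraction batches, so the p-values measure the spread between these hearts, which may be partly technical.

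The members, the 8 pathway lists and the 14 cell type lists were chosen with earlier results of these data known. All 40 members are named whatever their values. From each pathway list up to 4 non-members past the threshold with the smallest p could be named, and up to 2 from each cell type list. Summed levels add the linear values of a list and return to log2. Alternatives changed the filter, the prior (trended and robust), the scaling (cyclic loess), the array weights, the arrays fitted, the threshold or the block (replicate number, or sample code as a random block), or left hearts out. Leaving out TAC luciferase hearts 2 and 3 together was chosen after seeing the data. Scripts were tested on simulated data. Plots used matplotlib 3.10.9 under Python 3.11.15.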

Additional observations from a re-analysis of the deposited data

How the results depend on the processing

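No member called with all hearts changed direction in an alternative run. Counting all members, called or not, the sign turned in 27 of 683 values for TAC luciferase against sham, in 24 of 683 between both TAC groups and in 9 of 683 for TAC HDAC4-NT against sham. Members called without TAC luciferase heart 1 were among them, such as Aplnr, Esam and Rasip1 without hearts 2 and 3. Counts of called members moved by over 1.5 times as follows, given as higher and lower, beside 6 and 2 (TAC luciferase against sham), 0 and 0 (TAC HDAC4-NT against TAC luciferase) and 6 and 2 (TAC HDAC4-NT against sham). At an adjusted p under 0.01 they were 3 and 0, 0 and 0, and 2 and 0, and at 0.10 they were 10 and 3, 4 and 3, and 9 and 2, by construction of the threshold, with 13.9%, 0.0238% and 12.5% of all genes called at 0.01 and 33.6%, 2.36% and 29.3% at 0.10. With only the 6 arrays compared, 3 rose in TAC luciferase against sham and 10 in TAC HDAC4-NT against sham, with 20.2% and 24.3% of all genes called. For TAC HDAC4-NT against TAC luciferase the counts were 9 and 9 with array weights, 1 and 1 with the stricter filter and 2 and 2 with the sample code as a random block, with 6.57%, 1.2% and 1.41% of all genes called. With TAC luciferase hearts 2 and 3 both left out they were 3 and 0, 0 and 0, and 10 and 3, with 15.3%, 0.0794% and 24.3% called. Leaving out each heart gave 3 to 12 and 1 to 5 (19.3% to 25.6% of all genes), 0 to 7 and 0 to 8 (0.00794% to 5.53%), and 2 to 8 and 0 to 2 (15.2% to 25.1%). The cause of these shifts was not tested. In TAC luciferase against sham, Ptprb, Vcam1 and Icam1 were called in all 18 settings at the threshold of 0.05, as were Cdh5 and Calcrl in TAC HDAC4-NT against sham. With the replicate block, TAC HDAC4-NT against TAC luciferase gave 1 (Calcrl) and 1 (Cldn5), and TAC HDAC4-NT against sham 5 and 1, with 0.841% and 21.2% of all genes called. The replicate numbers did not pair the hearts: deviations of same-numbered hearts correlated at 0.199, 0.026 and 0.082 in TAC HDAC4-NT and TAC luciferase hearts, 0.010, 0.130 and 0.002 in TAC HDAC4-NT and sham hearts and -0.039, -0.123 and 0.062 in TAC luciferase and sham hearts, and 4, 2 and 0 of 6 hearts correlated best with their own number. Signals near the filter level of 5.66 limit what could be measured for Angpt2, Sele and Selp.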
